A study of Homo sapiens with 24 samples.

Results

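The experiment described here is the targeting of LHX2 during differentiation of human embryonic stem cells under the ventricular protocol, compared with control targeting under the same protocol. It comprised 6 of the 24 bulk RNA sequencing libraries of the series, chosen by their labels: 3 of LHX2-targeted cells and 3 of TRAC-targeted cells, with replicates numbered 1, 2 and 3 in each group. All cells came from the HES3 line carrying a GFP reporter at NKX2-5 and an mCherry reporter at NR2F2, and every group, the control included, had been through CRISPR-Cas9 targeting. TRAC encodes the constant region of the T-cell receptor alpha chain and served as the control target. Cells were grown as embryoid bodies under a Wnt-modulating protocol for at most 14 days, and the ventricular libraries received no retinoic acid. The other targeted groups drawn on for comparison were ZNF503 and ZNF711 in the ventricular protocol (3 libraries each), and LHX2 and TRAC in the atrial protocol (3 libraries each), in which retinoic acid was given at day 4. The labels write VM and AM, read here as ventricular and atrial. They do not say whether a group is 1 clone or whether replicates are separate differentiations. The p-values therefore measure spread between libraries only, which may be technical. That spread was pooled over all 24 libraries, after shifts shared by same-numbered libraries of a protocol were removed.

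LHX2 is a transcription factor of the LIM-homeodomain family. Its LIM domains bind the LDB cofactors, which bridge such factors to one another and to other DNA-binding proteins, and it is best known for roles in the developing forebrain, the eye and the hair follicle. Heart differentiation cultures of this kind hold cardiomyocytes together with non-myocyte cells, among which endoderm-derived cells with liver and gut genes are common. CXCL14 is a secreted chemokine made by many epithelia and stromal cells, and it was the gene given as the marker of this experiment. Earlier results of these same data were known when it was given, so its call below is not independent support.

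The 6 libraries held 4726431 to 7438010 counts, and 22868 to 25454 genes had a count in each. Mitochondrial genes took 2.57% to 3.68% of counts, and a floor of 3 counts equalled 0.447 to 0.638 CPM (counts scaled to library size), covering counting error only. Of 62757 genes in the table, 17724 passed the filter on low counts and were tested. The cell type in the labels was cardiomyocyte, and all 20 sarcomere genes on the list had counts in every library. Their summed level was 26246 to 46317 CPM with LHX2 targeting and 19842 to 48385 CPM with TRAC targeting. The 18 endoderm and hepatic genes listed also had counts in every library. In replicate 3 of the TRAC group their sum was above that of the sarcomere genes, at 36703 beside 19842 CPM. Replicate 3 of the TRAC libraries stood apart from its group, with a chi-square per degree of freedom of 50.7 against replicate 1 and 42.1 against replicate 2, compared with 15.8 between replicates 1 and 2. Replicate 3 of the LHX2 libraries stood apart to a smaller degree, at 26.2 and 22.5 against replicates 1 and 2, compared with 11.6 between those. Replicate 2 of the LHX2 libraries held most of the keratin counts described below. Results are therefore given with and without these libraries.

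Messenger RNA of the targeted gene was scarce in every library, so that its level says little about how complete the knockout was. LHX2 lies on chromosome 9 (GRCh38, chr9:124001670-124033301, plus strand, protein-coding). It was counted 8, 2 and 14 times in the LHX2-targeted libraries and 9, 18 and 27 times in the TRAC-targeted libraries, for replicates 1, 2 and 3. These counts equalled 1.5, 0.425 and 2.80 CPM with LHX2 targeting, and 1.85, 3.71 and 4.02 CPM with TRAC targeting. Each LHX2-targeted library was below its same-numbered control, but the groups overlapped. The fitted log2 fold change was -1.05 with a standard error (SE) of 0.63 and an adjusted p of 0.713. TRAC was too scarce to be tested, with 4, 0 and 3 counts in the LHX2-targeted libraries and 6, 1 and 6 in the TRAC-targeted libraries.

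LHX2 targeting was compared with TRAC targeting over all genes to find what changed under the ventricular protocol. Of the 17724 genes tested, 8 were called at an adjusted p below 0.05, or 0.0451%. Of these, 6 (0.0339%) were lower with LHX2 targeting and 2 (0.0113%) were higher. The lower genes were the chemokine CXCL14 and 5 other genes, GATM, SCARB1, DGAT2, USH1C and FTCD. The higher genes were the keratins KRT5 and KRT6A. At an unadjusted p below 0.05 there were 1439 genes (8.12%), with 864 lower (4.87%) and 575 higher (3.24%). The test was edgeR's quasi-likelihood test with same-numbered libraries of a protocol as a block, adjusted by Benjamini-Hochberg, and without the replicate block it called 0 genes, with 463 at an unadjusted p below 0.05.

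**Figure D1:**
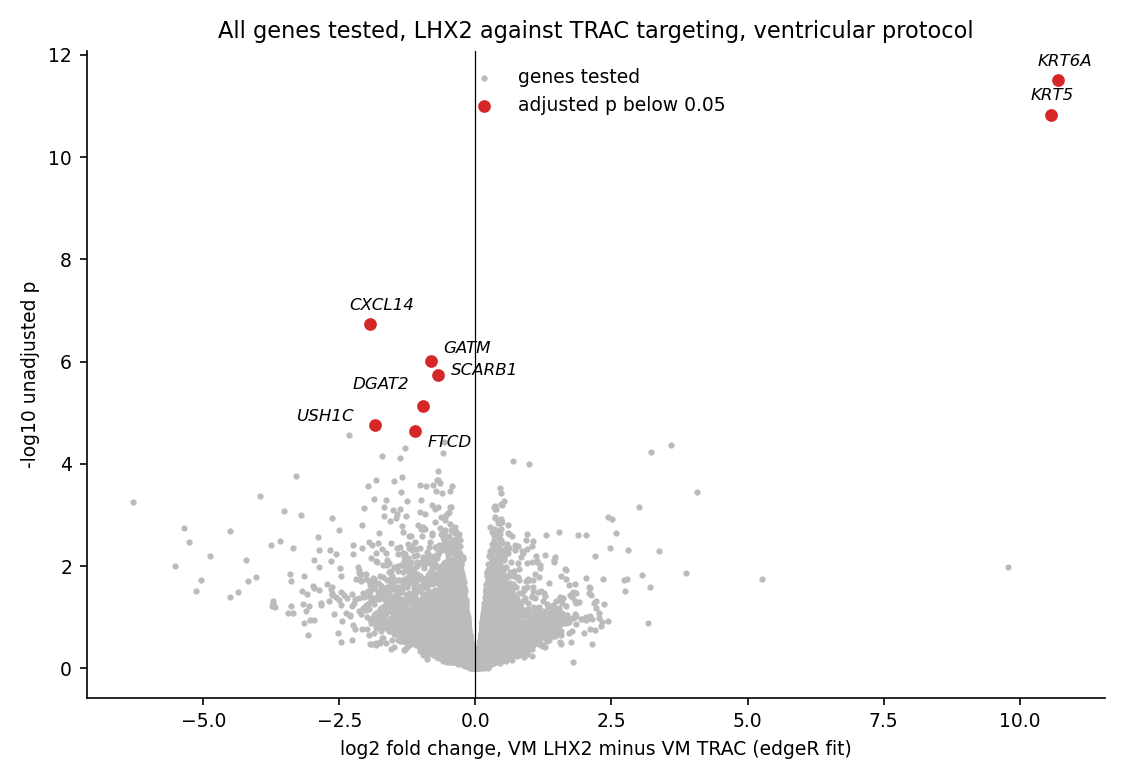
Each point is 1 of the 17724 genes tested, with the fitted log2 fold change (LHX2 minus TRAC targeting, ventricular protocol) on the x axis and -log10 of the unadjusted p on the y axis. Red points are the 8 genes with an adjusted p below 0.05, of which KRT5 and KRT6A are at the far right because their counts were 0 in all 3 control libraries.

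CXCL14 was lower in every pair, and the groups did not overlap. The gene lies on chromosome 5 (chr5:135570679-135579279, minus strand, protein-coding). Its level was 3.38, 7.44 and 6.0 CPM in LHX2-targeted replicates 1, 2 and 3, and 15.6, 26.2 and 21.9 CPM in the same-numbered TRAC-targeted libraries. The highest LHX2-targeted library was thus below the lowest control. Group means were 5.61 ± 2.06 and 21.2 ± 5.33 CPM (SD, n = 3 each), and the fitted level was 3.83-fold lower, with a log2 fold change of -1.94 (SE 0.31, adjusted p = 0.00109). The pairs gave similar log2 differences of -2.08, -1.76 and -1.80.

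The other targeted groups of the ventricular protocol gave CXCL14 levels on the side of the control. Replicates 1, 2 and 3 had 9.38, 22.9 and 25.8 CPM with ZNF503 targeting, and 26.5, 31.0 and 30.7 CPM with ZNF711 targeting. All of these 6 values were above the highest LHX2-targeted library. CXCL14 was called lower with LHX2 targeting against both, with a log2 fold change of -1.76 against ZNF503 (adjusted p = 0.00874) and of -2.44 against ZNF711 (adjusted p = 5.32e-07). These comparisons share the LHX2-targeted libraries with the one against TRAC.

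Under the atrial protocol CXCL14 was low in both groups. It measured 2.57, 4.65 and 1.90 CPM with LHX2 targeting and 3.98, 3.75 and 4.92 CPM with TRAC targeting, and the groups overlapped. The atrial log2 fold change was -0.50 (SE 0.40, adjusted p = 0.575). The difference between the protocols' effects was -1.44 on the log2 scale and was not called (adjusted p = 0.291), so the effect is not shown to differ between protocols. The CXCL14 call was also lost without the replicate block (adjusted p = 0.837) and without replicate 1 of both groups (adjusted p = 0.0736), while its log2 fold change stayed between -2.07 and -1.84 over all fits with libraries left out.

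**Figure D2:**
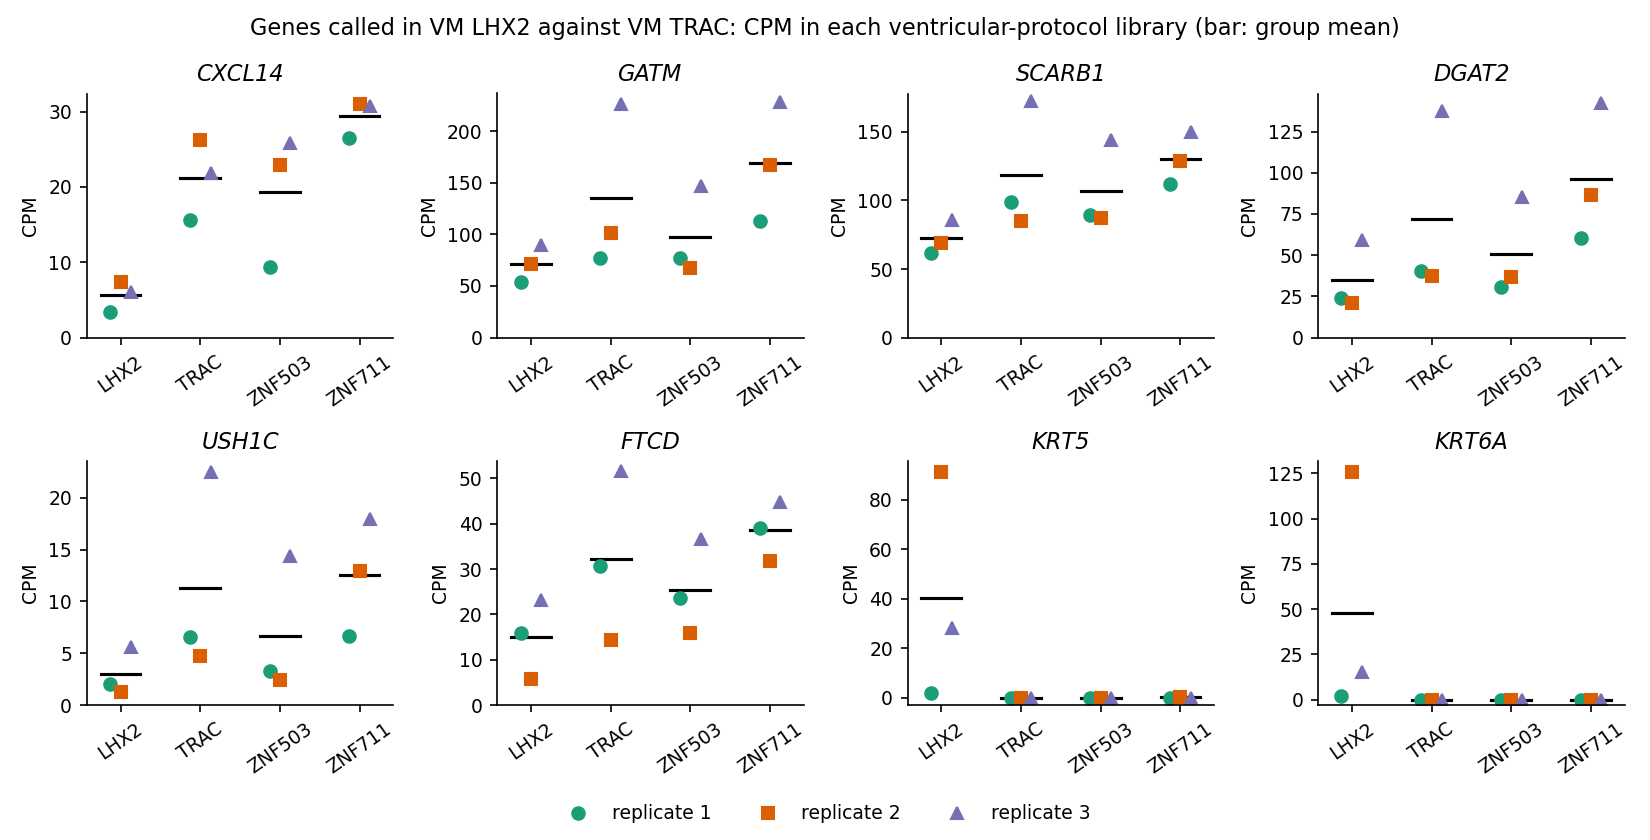
Points are CPM in each ventricular-protocol library for the 8 called genes, with the target on the x axis, replicates by colour and shape, and bars at the group means. CXCL14 is below every other library in all 3 LHX2-targeted libraries, replicate 3 is the highest of the TRAC-targeted libraries for GATM, SCARB1, DGAT2, USH1C and FTCD, and KRT5 and KRT6A are at 0 in the TRAC- and ZNF503-targeted libraries.

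The other chemokine genes did not follow CXCL14. The list of CXCL14, CXCL12 and related ligands and receptors held 13 genes, of which 9 were tested, and CXCL14 was the only member called or with an unadjusted p below 0.05. The median log2 fold change over the 9 tested members was -0.087, beside -0.0050 over all genes tested. CXCL12, the ligand of CXCR4, had 30.5, 51.9 and 33.2 CPM with LHX2 targeting and 34.3, 47.4 and 26.7 CPM with TRAC targeting, overlapping throughout. ACKR3, a scavenging receptor of CXCL12, had a log2 fold change of -0.70 (SE 0.39, adjusted p = 0.677).

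LIM-homeodomain factors and their cofactors showed no called gene. Of 22 listed, 16 were tested, 8 with a fold change above 0 and 8 below, with a median log2 fold change of 0.010. LDB1, the general cofactor of the family, had 190, 214 and 188 CPM with LHX2 targeting and 198, 225 and 181 CPM with TRAC targeting. ISL1, the LIM-homeodomain factor of second heart field progenitors, had a log2 fold change of 0.19 (adjusted p = 0.801). SSBP2, which stabilises LDB complexes, was the only member with an unadjusted p below 0.05, at a log2 fold change of 0.24 (SE 0.11, adjusted p = 0.563).

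GATM, SCARB1, DGAT2, USH1C and FTCD were each lower with LHX2 targeting in all 3 pairs, but for each of them the groups overlapped. Replicate 3 was the highest library of each group for GATM, SCARB1, DGAT2, USH1C and FTCD alike. GATM makes the precursor of creatine (chr15:45361124-45402327, minus strand). It had 53.8, 71.4 and 89.7 CPM with LHX2 targeting and 76.7, 101 and 226 CPM with TRAC targeting. Its log2 fold change was -0.81 (SE 0.14, adjusted p = 0.00427), with a difference of -1.33 in pair 3 against -0.51 and -0.50 in pairs 1 and 2.

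SCARB1 is the receptor for high-density lipoprotein (chr12:124776856-124882668, minus strand). It had 62.0, 69.1 and 85.9 CPM with LHX2 targeting and 99.1, 85.0 and 173 CPM with TRAC targeting. Only replicate 3 of the LHX2 group reached the range of the controls. The log2 fold change was -0.68 (SE 0.12, adjusted p = 0.00644).

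DGAT2 catalyses the last step of triglyceride synthesis (chr11:75759512-75801535, plus strand). It had 24.1, 20.8 and 59.4 CPM with LHX2 targeting and 40.4, 37.3 and 138 CPM with TRAC targeting. The log2 fold change was -0.96 (SE 0.19, adjusted p = 0.0217).

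USH1C encodes harmonin, a scaffold of the sensory hair bundle and of the brush border of gut and kidney epithelia (chr11:17493895-17544416, minus strand). It was the scarcest of the 5, with 2.07, 1.28 and 5.6 CPM with LHX2 targeting and 6.57, 4.74 and 22.5 CPM with TRAC targeting. The log2 fold change was -1.85 (SE 0.38, adjusted p = 0.0440). FTCD, an enzyme of histidine breakdown enriched in liver (chr21:46136262-46155567, minus strand), had 15.8, 5.74 and 23.2 CPM with LHX2 targeting and 30.8, 14.4 and 51.6 CPM with TRAC targeting. Its log2 fold change was -1.11 (SE 0.23, adjusted p = 0.0495), and replicate 2 was the lowest library in each group.

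All of these 5 calls were lost when replicate 3 of either group was left out. Without replicate 3 of the TRAC group 3 genes were called, CXCL14, KRT5 and KRT6A, and the log2 fold changes were -0.59 for GATM (adjusted p = 0.174), -0.52 for SCARB1 (0.311), -0.72 for DGAT2 (0.578), -1.67 for USH1C (0.497) and -0.91 for FTCD (0.603). Without replicate 3 of the LHX2 group the adjusted p was 0.147 for GATM, 0.183 for SCARB1, 0.178 for DGAT2, 0.283 for USH1C and 0.136 for FTCD. DGAT2, USH1C and FTCD were also lost without replicate 2 of the LHX2 group (adjusted p = 0.261, 0.261 and 0.363), and SCARB1, USH1C and FTCD without its replicate 1 (0.0520, 0.0757 and 0.109). USH1C and FTCD were lost as well without replicate 1 of the TRAC group (0.0935 and 0.0991) and with libraries scaled by total count alone (0.0610 and 0.0668). Against ZNF503 targeting, 3 of 17724 genes were called (0.0169%), CXCL14, KRT5 and KRT6A, and none of the 5 was among them. That comparison shares the LHX2-targeted libraries with the one against TRAC. KRT5 and KRT6A passed the filter on low counts only through libraries in which they were high. Their calls here and without replicate 3 of the TRAC group are thus a description only. Against ZNF711 targeting, where 14.3% of all genes were called, all 5 were called lower. Their adjusted p ran from 2.47e-07 for GATM to 5.08e-05 for USH1C. All 5 were also called lower against the mean of both groups (4.49% over all genes), at 0.000185 for SCARB1 to 0.00427 for USH1C. In the atrial protocol none of the 5 was called, with log2 fold changes between -0.29 for DGAT2 and 0.61 for USH1C. The difference between protocols came nearest to the threshold for USH1C (-2.46) and FTCD (-1.56), both at an adjusted p of 0.0522.

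Genes of endoderm and liver had fitted fold changes below 0 throughout their list, and none was called in the fit on all 24 libraries. The list held 18 genes, all tested: every fold change was below 0, 16 of 18 were lower in all 3 pairs (15.4% over all genes), and 13 of 18 had an unadjusted p below 0.05 in the lower direction (4.87% over all genes). The median log2 fold change was -1.06, beside -0.0050 over all genes tested, and the medians of the pairs were -0.69, -0.98 and -1.44. Summed over the list, the level was 3478, 2222 and 13502 CPM with LHX2 targeting and 5729, 4657 and 36703 CPM with TRAC targeting. Replicate 3 was the highest library of each group, as it was for GATM, SCARB1, DGAT2, USH1C and FTCD, whereas CXCL14 was highest in replicate 2 of each group. The part of the endoderm level in the calls of the 5 genes was not tested. A fit on the 6 libraries alone, which leaves few residual degrees of freedom, called 179 genes over all. Of the 18, 11 were among them: AFP, AHSG, ALB, APOA1, APOA2, APOA4, APOB, APOC3, HNF4A (adjusted p = 4.25e-08), SERPINA1 and TF. The share over all genes tested in that fit is not given here. With no filter on low counts 95 genes were called, and of the 18 only HNF4A was among them. In bulk RNA, fewer cells of a type and less RNA per cell cannot be told apart.

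Secreted liver proteins and a liver transcription factor had similar fold changes. AFP, the fetal serum protein of yolk sac and liver, was the most abundant member, with 1251, 906 and 5242 CPM with LHX2 targeting and 2019, 1831 and 14343 CPM with TRAC targeting (log2 fold change -1.07, SE 0.35, adjusted p = 0.428). APOB, the structural protein of low-density lipoprotein, had 811, 368 and 1828 CPM against 1479, 901 and 5914 CPM. Its log2 fold change was -1.29 (SE 0.39, adjusted p = 0.401). HNF4A, a transcription factor of hepatocytes and gut epithelium, had 12, 6.80 and 41.0 CPM with LHX2 targeting and 25, 17.3 and 121 CPM with TRAC targeting. It had the lowest p of the list, with a log2 fold change of -1.34 (SE 0.34, adjusted p = 0.323). For all of these, each LHX2-targeted library was below its same-numbered control, but replicate 3 of the LHX2 group exceeded replicates 1 and 2 of the control.

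FOXA2 and SOX17, transcription factors of early endoderm, were the members that were not lower in every pair. FOXA2 had 6.96, 2.76 and 20.8 CPM with LHX2 targeting and 8.82, 4.33 and 17.7 CPM with TRAC targeting (log2 fold change -0.14, adjusted p = 0.963). SOX17 was near the floor, at 1.06 to 1.40 CPM with LHX2 targeting and 0.619 to 2.38 CPM with TRAC targeting.

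**Figure D3:**
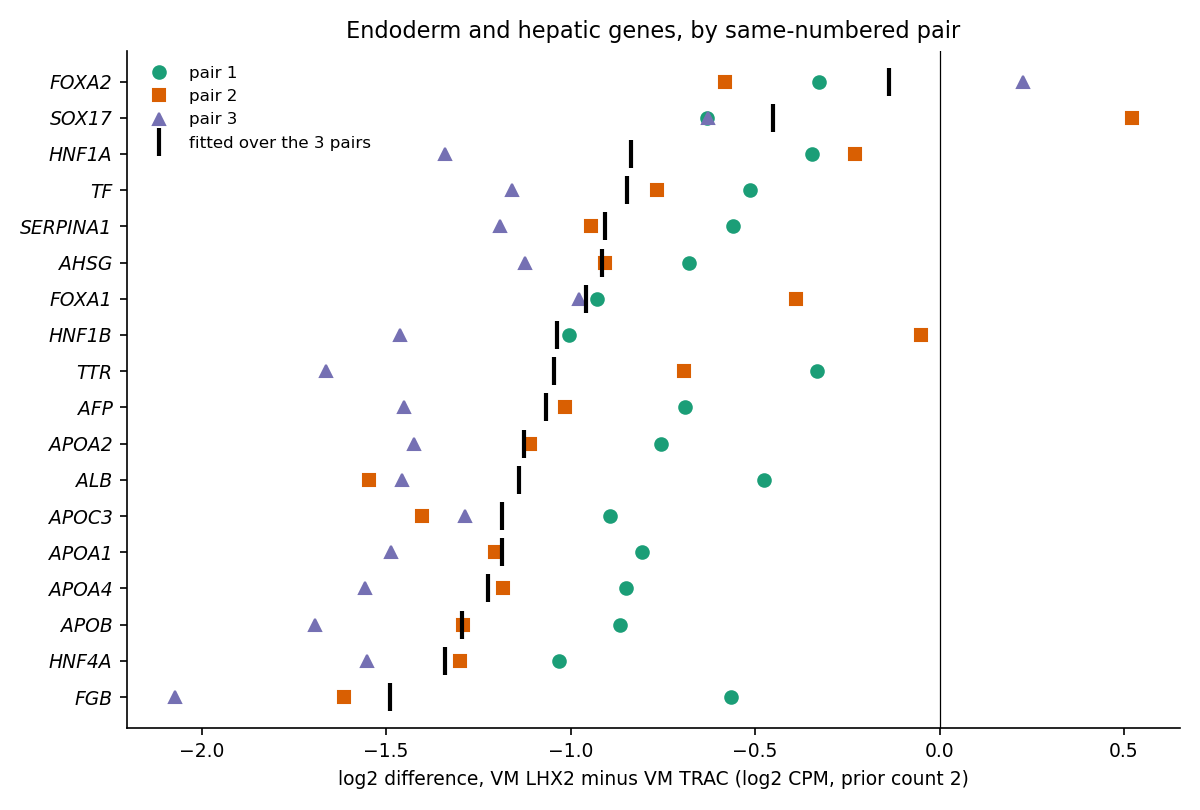
Log2 differences in CPM between same-numbered LHX2- and TRAC-targeted libraries of the ventricular protocol (x axis) for the 18 endoderm and hepatic genes (y axis), with colours and shapes for pairs and a black tick for the fitted value. FOXA2 and SOX17 have 1 pair above 0 each, and pair 3 has the most negative median (-1.44).

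The other groups of the series gave the endoderm list different levels. Summed levels were 4536, 3924 and 24813 CPM with ZNF503 targeting and 15453, 27236 and 38480.2 CPM with ZNF711 targeting. The LHX2-targeted libraries were below every same-numbered library of these groups. Against ZNF503 the median log2 fold change was -0.76, and the list was not among the 3 genes called. Against ZNF711, 17 of 18 were called (14.3% over all genes) with a median of -2.41. In the atrial protocol the median for LHX2 against TRAC targeting was -0.062. No list member was among the 9 genes (0.0508%) whose effect was called different between protocols. Without replicate 3 of the TRAC group the ventricular median was -0.63, and without replicate 3 of both groups it was -0.85.

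Genes of cholesterol and fatty acid synthesis, a list drawn up after the values had been seen, were mostly below 0 as well. All 29 were tested, and 27 had a fold change below 0, 14 were lower in all 3 pairs (15.4% over all genes) and 12 had an unadjusted p below 0.05 in the lower direction (4.87% over all genes). Because of how the list was chosen, these counts are a description only. The median was -0.38, but it came mainly from pair 3, at -0.74 against -0.020 and -0.090 in pairs 1 and 2. FASN, fatty acid synthase, had 599, 465 and 944 CPM with LHX2 targeting and 757, 759 and 2182 CPM with TRAC targeting (log2 fold change -0.77, SE 0.16, adjusted p = 0.157). LSS, which forms lanosterol, differed by -0.44, -0.38 and -0.44 in the 3 pairs (fitted -0.43, SE 0.11, adjusted p = 0.157). SREBF2, the transcription factor of cholesterol synthesis genes, had a log2 fold change of -0.0091 (adjusted p = 0.991). Without replicate 3 of both groups the median of the list was -0.11. The summed endoderm level moves with this list across replicates, and its part was not tested.

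KRT5 and KRT6A were the only called genes that were higher with LHX2 targeting. KRT5 is the keratin of basal cells in stratified epithelia, and KRT6A is induced in activated keratinocytes. Both lie in the keratin cluster of chromosome 12 (KRT5 at chr12:52514575-52520687 and KRT6A at chr12:52487174-52493257, minus strand). KRT5 was counted 10, 429 and 141 times in LHX2-targeted replicates 1, 2 and 3, or 1.88, 91.2 and 28.2 CPM. KRT6A was counted 10, 591 and 77 times, or 1.88, 126 and 15.4 CPM. Both had 0 counts in all 3 TRAC-targeted libraries and in all 3 ZNF503-targeted libraries.

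The mean level of KRT5 was 40.4 ± 45.9 CPM (SD, n = 3), at least 65.3-fold higher than the control, and that of KRT6A was 47.6 ± 67.9 CPM, at least 77.0-fold higher. These bounds set the control at 3 counts in its library with the highest floor, 0.619 CPM. Without replicate 2 of the LHX2 group the mean levels were about 15 and 8.64 CPM, and the bounds fell to at least 24.3-fold for KRT5 and at least 14.0-fold for KRT6A. The adjusted p was 1.31e-07 for KRT5 and 5.51e-08 for KRT6A, although the SD of each exceeded its mean. Neither was tested in the fits on the 12 ventricular or the 6 libraries alone, where both were below the filter on low counts. They passed it among all 24 libraries with 2 LHX2-targeted ventricular libraries and 3 atrial libraries at or above 1.96 CPM for KRT5, and 2 and 1 for KRT6A. Since they passed only through libraries in which they were high, these p-values are given as a description. Without replicate 2 of the LHX2 group KRT5 remained called (adjusted p = 0.00611) and KRT6A was not (0.146). Without the replicate block neither was called, nor by DESeq2 (adjusted p = 0.404 and 0.681). KRT6A has near-identical copies, KRT6B and KRT6C, so the division of reads among them is uncertain.

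Some other genes of stratified epithelia were counted in the same libraries. The list, drawn up after these keratins had been seen, held 32 genes, of which 17 were tested. The 2 called were KRT5 and KRT6A themselves, and 8 had an unadjusted p below 0.05 in the higher direction (3.24% over all genes). Of the 17 tested, 4 had a fold change below 0. An unadjusted p below 0.05 in the lower direction was found for 1 (4.87% over all genes). Because the list was chosen for these keratins, nothing is read from those counts. KRT14, the partner of KRT5 in basal cells, was counted 11, 296 and 66 times with LHX2 targeting and 0 times in each control library. KRT16, a partner of KRT6A, was counted 4, 228 and 23 times, against 3, 1 and 4 in the controls. The desmosomal genes DSG3 and PKP1 came just outside the threshold. DSG3 was counted 8, 84 and 25 times against 1, 3 and 5 (log2 fold change 3.59, SE 0.79, adjusted p = 0.0699). PKP1 was counted 11, 123 and 15 times against 1, 6 and 7 (log2 fold change 3.22, SE 0.73, adjusted p = 0.0783). Not all members shared this pattern. S100A14 was counted 51, 72 and 340 times against 87, 92 and 927, and LAMB3 66, 63 and 184 times against 56, 54 and 600.

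Genes of the outer, cornifying layers were counted mainly in replicate 2 of the LHX2 group. SPRR1A, a cornified envelope precursor, was counted 0, 60 and 1 times, and IVL, which encodes involucrin, 0, 37 and 0 times, with 0 counts of either in the controls. S100A8, a calcium-binding protein of activated keratinocytes and neutrophils, was counted 0, 121 and 3 times against 2, 0 and 0. TP63, the transcription factor of basal epithelial cells, overlapped between the groups, with 1.69, 3.61 and 5.6 CPM with LHX2 targeting and 0.821, 3.71 and 5.22 CPM with TRAC targeting (log2 fold change 0.15, adjusted p = 0.962). The keratins of moist epithelia were absent or nearly so, with 0 counts of KRT13 in the 3 LHX2-targeted libraries and 0, 9 and 0 counts of KRT4.

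Summed over the 32 genes, the level was 158, 819 and 375 CPM with LHX2 targeting and 128, 168 and 465 CPM with TRAC targeting, so that only replicate 2 stood above all controls. The median log2 fold change over tested members was 0.53, and 0.18 without replicate 2 of the LHX2 group, 1.24 without replicate 3 of the TRAC group and 1.45 without replicate 3 of both groups. The source of these counts was not tested. KRT5 was also counted outside the ventricular protocol: 1, 1 and 24 times in the LHX2-targeted atrial libraries and 0, 18 and 20 times in the ZNF503-targeted atrial libraries, against 0 in all 3 TRAC-targeted atrial libraries. KRT6A was counted 0, 1 and 33 times with LHX2 targeting in the atrial protocol. Nearly all of these LHX2-targeted atrial counts were thus in 1 library, replicate 3. The edgeR fit nonetheless called both genes for LHX2 against TRAC targeting in the atrial protocol (adjusted p = 0.00799 for KRT5 and 0.00427 for KRT6A). These p-values too are given as a description only.

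**Figure D4:**
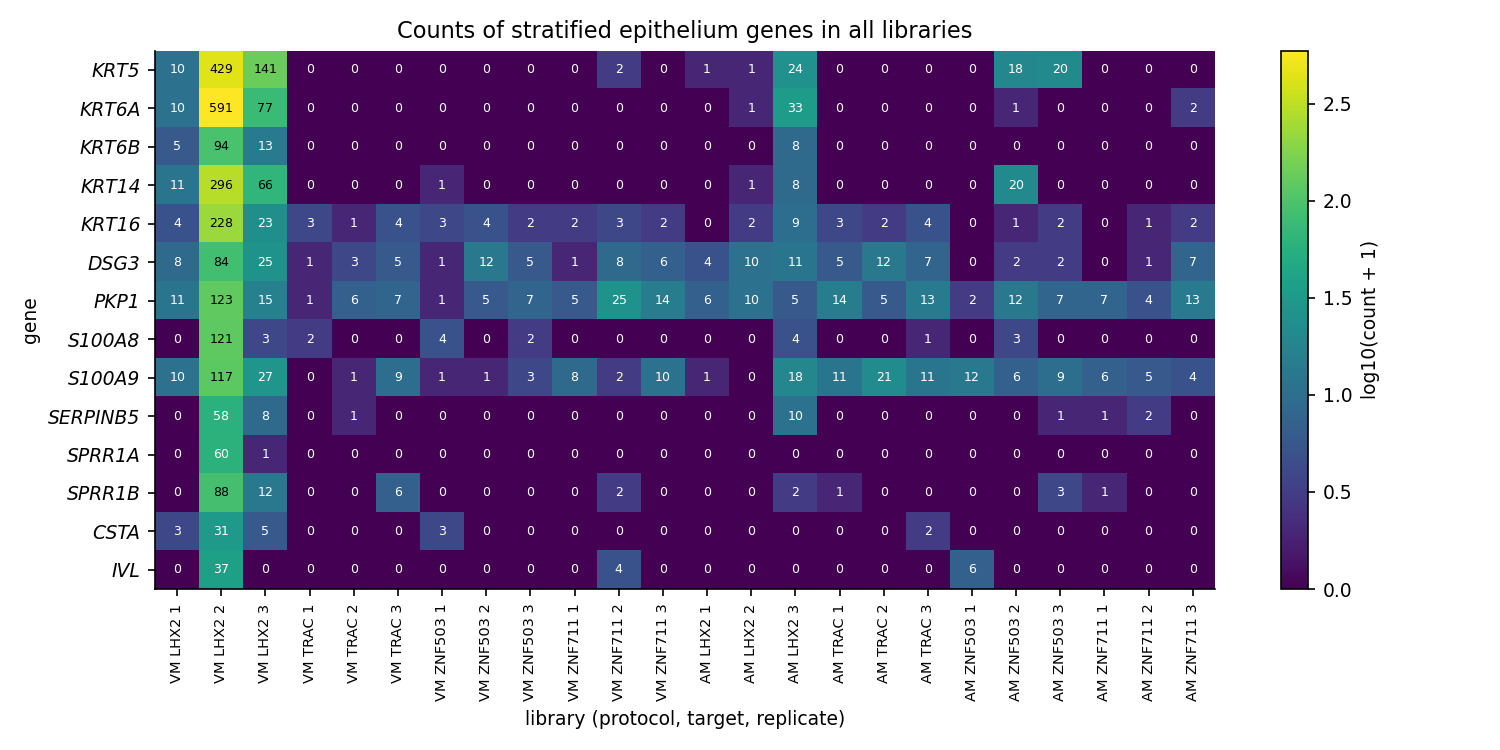
Deposited counts of 14 of the 32 listed genes of stratified epithelium (y axis) in the 24 libraries (x axis: protocol, target and replicate). Colour is log10 of the count plus 1. The 14 were chosen after their counts were seen, and S100A14 and LAMB3 are not among them. Counts are concentrated in replicate 2 of the LHX2-targeted ventricular libraries (KRT6A 591, KRT5 429) and, lower, in replicate 3 (77 and 141).

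Cardiac gene lists showed no called member. Of the 20 sarcomere genes, 18 had a fold change above 0 and 9 were higher in all 3 pairs (14.8% over all genes), with a median log2 fold change of 0.19, and 0.063 without replicate 3 of both groups. MYOM1, which links thick filaments at the M band, had 678, 782 and 441 CPM with LHX2 targeting and 563, 637 and 249.6 CPM with TRAC targeting. Its log2 fold change was 0.45 (SE 0.14, adjusted p = 0.369), the lowest p of the list. TNNT2, cardiac troponin T, was lower in every pair, at 520.4, 307 and 157 CPM against 611, 356 and 203 CPM (log2 fold change -0.27, SE 0.11, adjusted p = 0.492). The levels of both genes were lowest in replicate 3 of each group, the replicate with the highest endoderm level.

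Chamber, pacemaker and progenitor genes had no called member either. Median log2 fold changes were 0.15 over 12 ventricular genes, -0.22 over 11 atrial genes, -0.00036 over 11 pacemaker and conduction genes, 0.088 over 15 cardiac transcription factors, 0.15 over 12 calcium-handling genes and 0.25 over 12 second heart field genes. HEY2, a transcriptional repressor of the ventricular compact layer, had the lowest p among ventricular genes, with a log2 fold change of 0.46 (SE 0.18, adjusted p = 0.480). FGF10, a second heart field growth factor, had 81.8, 99.5 and 57.2 CPM with LHX2 targeting and 57.4, 59.6 and 49.2 CPM with TRAC targeting (log2 fold change 0.50, adjusted p = 0.439). Among atrial genes SLN and KCNJ3 had an unadjusted p below 0.05, but both were scarce, at no more than 1.20 CPM in any LHX2-targeted library.

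**Figure D5:**
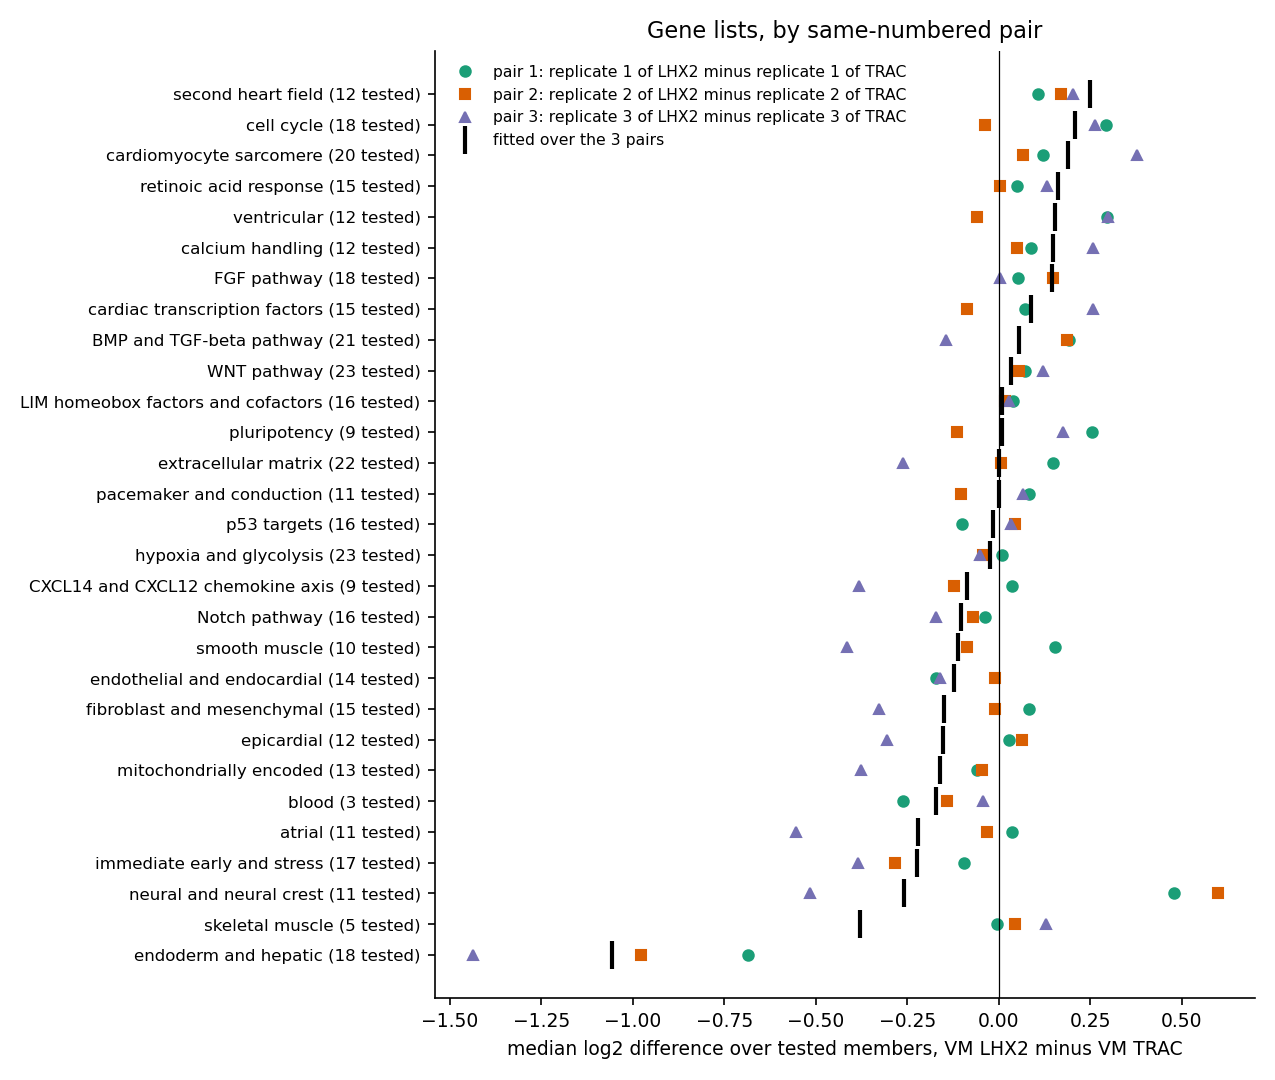
Median log2 difference between LHX2- and TRAC-targeted ventricular libraries over the tested members of each of 29 gene lists (y axis, number tested in brackets), for each same-numbered pair (points) and for the fit (ticks). The endoderm and hepatic list is lowest in the fit (-1.06) and below 0 in all 3 pairs.

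Lists of other cell types had fitted medians between -0.38 and 0.0084 and no called member. These were epicardial, fibroblast, smooth muscle, endothelial, neural, skeletal muscle, pluripotency and blood genes. Blood genes were almost absent, with 3 of 13 tested, and skeletal muscle had 5 of 10. The 14 endothelial genes had no member with an unadjusted p below 0.05, nor had the 12 tested epicardial genes.

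Among signalling lists the Notch genes had the most members below 0. Of 16 tested, 12 had a fold change below 0, with a median of -0.10. An unadjusted p below 0.05 in the lower direction was found for 4 (4.87% over all genes). HEYL, a Notch target, had 5.08, 5.10 and 12 CPM with LHX2 targeting and 9.64, 9.49 and 26.1 CPM with TRAC targeting (log2 fold change -1.0, SE 0.30, adjusted p = 0.332). In the WNT list, SFRP5, a secreted antagonist, had 1.88, 3.83 and 4.20 CPM against 6.77, 5.16 and 21.0 CPM, without overlap (log2 fold change -1.67, SE 0.42, adjusted p = 0.262). RSPO3, a secreted enhancer of WNT signalling, was above every control in all 3 libraries, at 81.4, 85.0 and 86.3 CPM against 57.9, 52.4 and 72.1 CPM (log2 fold change 0.48, SE 0.14, adjusted p = 0.270). The other targeted ventricular groups were near the LHX2-targeted level, with RSPO3 means of 77.1 CPM (ZNF503) and 81.0 CPM (ZNF711). Genes whose LHX2-targeted libraries were all above or all below the controls numbered 480 (2.71%) and 428 (2.41%) of all genes tested.

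In the WNT, BMP and TGF-beta, and FGF lists no gene was called, and the medians were 0.034 over 23 genes, 0.054 over 21 and 0.15 over 18. BMP7, a secreted ligand, had 89.9, 116 and 120.1 CPM against 74.1, 82.3 and 89.6 CPM (log2 fold change 0.40, SE 0.12, adjusted p = 0.335). DUSP6, a phosphatase induced by FGF and ERK signalling, had the lowest p of the genes chosen in the higher direction, with 22.4, 36.6 and 45.8 CPM against 14.6, 19.6 and 30.8 CPM (log2 fold change 0.69, SE 0.16, adjusted p = 0.0918). Each LHX2-targeted library was above its same-numbered control. Mean DUSP6 levels were 34.3 CPM with ZNF503 and 28.0 CPM with ZNF711 targeting, beside 34.9 CPM with LHX2 and 21.7 CPM with TRAC targeting. FGFR4, a receptor enriched in liver and endoderm, was on the other side, with 11.8, 8.29 and 38.2 CPM against 19.1, 19.6 and 82.5 CPM (log2 fold change -1.01, SE 0.24, adjusted p = 0.157).

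Cell-cycle genes were mostly above 0, with none called. Of 18 tested, 16 had a fold change above 0 and 7 were higher in all 3 pairs (14.8% over all genes), with a median of 0.21. An unadjusted p below 0.05 in the higher direction was found for 3, MCM3, CDK1 and MCM5 (3.24% over all genes). The pair medians were 0.29, -0.038 and 0.26. CENPE, a kinetochore motor of mitosis outside that list, had 24.3, 28.1 and 32.8 CPM with LHX2 targeting and 14.2, 14.9 and 13.9 CPM with TRAC targeting. The groups were well separated (log2 fold change 0.98, SE 0.23, adjusted p = 0.0983). In the ZNF711-targeted libraries CENPE was at 29.2, 34.2 and 31.8 CPM, and in the ZNF503-targeted libraries at 20.9, 10.2 and 26.6 CPM.

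Stress and housekeeping lists had no called member. Of 17 immediate early and stress genes, 14 had a fold change below 0, with a median of -0.22. An unadjusted p below 0.05 in the lower direction was found for 5 (4.87% over all genes). JUNB, an AP-1 subunit with the lowest p of the list, had a log2 fold change of -0.56 (SE 0.21, adjusted p = 0.452). Of 13 mitochondrially encoded genes, 11 were below 0, with a median of -0.16. The medians were -0.00031 over 22 extracellular matrix genes, -0.024 over 23 hypoxia and glycolysis genes, -0.016 over 16 p53 targets and 0.16 over 15 genes of the retinoic acid response. None of those 15 had an unadjusted p below 0.05.

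LAMA3, a laminin chain of epithelial basement membranes, was higher in all LHX2-targeted libraries, at 12, 14.5 and 16.8 CPM against 2.05, 0 and 8.05 CPM. Its log2 fold change was 2.43 (SE 0.65, adjusted p = 0.263). Unlike the keratins it was at a similar level in the 3 LHX2-targeted libraries. Genes were also named by lowest p in the higher direction among those with at least 50 counts in every LHX2-targeted library and the same sign in all 3 pairs. The other 12 of these had log2 fold changes between 0.34 and 0.53, among them the cohesin regulator PDS5B (0.47, adjusted p = 0.172), the stress-induced SESN3 (0.38, adjusted p = 0.226) and the endothelin receptor EDNRA (0.43, adjusted p = 0.276).

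Among lower genes that were not called, several had groups that did not overlap. ZFPM1, a cofactor of GATA factors, had 15.6, 20.4 and 22.0 CPM with LHX2 targeting and 25.2, 35.1 and 32.6 CPM with TRAC targeting (log2 fold change -0.68, SE 0.16, adjusted p = 0.127). COL14A1, a fibril-associated collagen, had 48.3, 51.0 and 36.4 CPM against 66.9, 80.4 and 63.9 CPM (log2 fold change -0.65, SE 0.15, adjusted p = 0.157). COL21A1, another collagen of that class, had 15.6, 15.3 and 9.81 CPM against 23.6, 31.6 and 20.9 CPM (log2 fold change -0.91, SE 0.23, adjusted p = 0.157). Mean COL21A1 levels were 14.8 CPM with ZNF503 and 12.1 CPM with ZNF711 targeting, near the 13.6 CPM with LHX2 targeting. For these 3 genes replicate 3 of the TRAC group was not the highest control.

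A few of these genes were called in the atrial protocol, whose libraries are separate from the ventricular ones. How many of all genes tested were called there is not given here, so no recurrence is read from these genes. COL14A1 had an atrial log2 fold change of -0.59 (SE 0.14, adjusted p = 0.0173), with 106, 141 and 86.5 CPM with LHX2 targeting and 163, 178 and 157 CPM with TRAC targeting. CST3, which encodes the protease inhibitor cystatin C, had ventricular and atrial log2 fold changes of -0.58 (adjusted p = 0.0645) and -0.64 (adjusted p = 0.00315). MT-ND4L, a mitochondrially encoded subunit of complex I, had 88.0, 92.9 and 73.8 CPM against 125, 119.8 and 107 CPM in the ventricular libraries (log2 fold change -0.47, adjusted p = 0.226), and an atrial log2 fold change of -1.01 (adjusted p = 2.56e-05). For none of the 3 was the difference between protocols called, with differences of -0.05, 0.06 and 0.54.

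The response to LHX2 targeting was then compared with the other targeted groups by a contrast that does not use the mean of the TRAC group, although the TRAC libraries stayed in the fit. Against the mean of ZNF503 and ZNF711 targeting, 795 genes were called (4.49%), 315 higher (1.78%) and 480 lower (2.71%) with LHX2 targeting. The share of higher genes was 39.6%, and 50.1% when libraries were scaled by total count alone. Against ZNF711 alone 2533 genes were called (14.3%), 771 of the 795 among them, and against ZNF503 alone 3. Without the replicate block the mean of both groups gave 0 called genes, with 1187 at an unadjusted p below 0.05. Leaving TRAC libraries out of the fit gave 829 called genes without replicate 1 and 981 without replicate 3.

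By gene group, 12 of 18 endoderm and hepatic genes and 12 of 29 cholesterol and fatty acid synthesis genes were called lower against the mean of the other targets (2.71% over all genes), and none of either list was called higher. Of the 20 sarcomere genes 4 were called higher, and of the 15 cardiac transcription factors 5 (1.78% over all genes). The medians against ZNF503 alone were 0.021 for sarcomere genes and -0.16 for the synthesis genes, compared with 0.80 and -0.86 against ZNF711. CXCL14 was called in each of these comparisons, with a log2 fold change of -2.10 (adjusted p = 2.55e-05) against the mean.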

How the data were processed

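Counts per gene for 24 libraries (8 groups of 3) were used as the authors deposited them. Reads were aligned with STAR to GRCh38, per the submitters' processing notes. The annotation release, counting program and strandedness were not given in the sources used here, and the labels name both polyA RNA and ribosomal RNA removal with a KAPA RiboErase kit (Roche). Every count column matched 1 library, with 0 columns unmatched. Gene symbols were found for 62639 of 62757 identifiers, and coordinates are those of GENCODE 29 on GRCh38. The members and gene lists were chosen with earlier results of these data known.

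Genes kept by filterByExpr were tested in R 4.3.3 with edgeR 4.0.16 (robust quasi-likelihood, TMM scaling) and limma 3.58.1. The fit took all 24 libraries, 1 mean per group and a replicate block within each protocol, with 12 residual degrees of freedom and a biological coefficient of variation of 14.3%. Benjamini-Hochberg adjustment ran over the 17724 genes tested within each comparison, and a gene was called below 0.05. The standard error is the log2 fold change divided by the square root of F. CPM use TMM-scaled library sizes, and differences within a pair use log2 CPM with a prior count of 2. The procedure was tested on simulated counts.

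Same-numbered libraries were taken as pairs from the rule of this experiment. Each library was expressed as its difference from its group mean over 11428 genes with a log2 CPM of at least 3. These differences correlated by 0.679, 0.602 and 0.754 between same-numbered LHX2- and TRAC-targeted ventricular libraries, and by -0.563 to -0.0020 between others. What the number stands for is not stated in the labels.

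Genes named were LHX2, TRAC and CXCL14, every called gene, the 15 with the lowest p in each direction among those reaching 50 counts throughout the higher group with the same sign in all 3 pairs, and up to 3 list members with the lowest p. Other list members in the text (AFP, FOXA2, SOX17, CXCL12, ACKR3, LDB1, ISL1, SREBF2 and the epithelial genes beside KRT5 and KRT6A) were chosen after their values were seen. The lists were LIM-homeodomain, chemokine, sarcomere, cardiac transcription factor, atrial, ventricular, pacemaker, calcium handling, second heart field, epicardial, fibroblast, smooth muscle, endothelial, endoderm, neural, skeletal muscle, pluripotency, blood, cell cycle, retinoic acid response, WNT, BMP and TGF-beta, FGF, Notch, hypoxia, p53, mitochondrial, extracellular matrix and immediate early genes. Alternatives were other blocks, fewer libraries in the fit, other scalings and filters, DESeq2 1.42.0 and leaving out libraries.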

Additional observations from a re-analysis of the deposited data

Results flagged for a closer look

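For 9 genes the effect of LHX2 targeting in the ventricular protocol differed from that in the atrial protocol by the interaction test of the edgeR fit (adjusted p below 0.05, 0.0508% of genes tested). In each of them the atrial effect was called and the ventricular effect was not. The ventricular minus the atrial log2 fold change was 0.81 for MYL6 and -1.15 for NEAT1 (adjusted p = 0.0343 each). At an adjusted p of 0.0492 it was 1.27 for H4C2, 1.02 for ATP5MJ, 0.68 for RPL7, 0.68 for ARHGAP31, -0.73 for KIF1A, -0.83 for ATF3 and -0.91 for PURPL. MYL6, a myosin light chain, had a ventricular log2 fold change of -0.03 and an atrial one of -0.84. NEAT1, a nuclear long noncoding RNA, had -0.31 and 0.84. Of the 9 differences 55.6% were above 0, and 33.3% of 21 with relative log expression scaling and 31.0% of 29 with library size alone. Without replicate 1 of the ventricular TRAC group no difference was called by edgeR, with 1593 at an unadjusted p below 0.05.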

How the results depend on the processing

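No followed value changed direction in 1662 values of 89 genes, with 132 losing and 84 gaining a call. These genes were mostly chosen for a low p or the same sign in all 3 pairs of these data. Their direction was thus largely fixed by the choice, and nothing is read from it. Of 589 list medians, 53 moved by more than 1 SD of their pairs. Genes called against TRAC numbered 8. The count was 0 without the replicate block, 1 (CXCL14) with a replicate block shared by both protocols, 5 with the 12 ventricular libraries only, 179 with the 6 libraries only (38 higher, 141 lower, 6 of the 8 among them, KRT5 and KRT6A not being tested there), 95 without a filter, 16 with a filter at 1 CPM in 3 libraries and 25 with DESeq2. Leaving out libraries gave 3 (without replicate 3 of TRAC, or of both groups) to 18 (without replicate 2 of TRAC), with 17 without replicate 1 of TRAC and 5 without replicate 2 of LHX2 or replicate 1 of both groups. Leaving out replicate 3 of all 4 ventricular groups, chosen after seeing the data, gave 9, of which 3 were among the 8.

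Differences between protocols numbered 9. The count was 0 without the replicate block (660 at an unadjusted p below 0.05), 0 with the shared block (1456), 21 with relative log expression, 29 with library size alone, 144 without a filter, 27 with the CPM filter and 67 with DESeq2, and 0 (without replicate 1 of TRAC) to 18 (without replicate 3 of all ventricular groups) with libraries left out. It was 1 without replicate 3 of LHX2, 4 without replicate 3 of TRAC, and 17 without replicate 2 of either. Genes called against the other targets numbered 795: 0 without the replicate block, 24 with the shared block, 510 with the 12 ventricular libraries, 86 (without replicate 2 of both groups) to 1157 (without replicate 3 of all ventricular groups) with libraries left out, with 260, 150 and 342 without replicates 1, 2 and 3 of LHX2, and, chosen after seeing the data, 3 against ZNF503 alone and 2533 against ZNF711 alone. The cause of these changes was not tested. In replicate 2 of the LHX2 group (4867328 counts, the highest floor of the 6 libraries), genes near 0.638 CPM rest on about 3 counts.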
